A study of Mus musculus with 21 samples.

Results

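Bipolar cells are the interneurons of the retina that carry the signal of rods and cones to amacrine and ganglion cells. In the ON type, glutamate from the photoreceptor acts on the receptor mGluR6, which works through the G protein Go to close the cation channel TRPM1, so that the cell is excited when light lowers the glutamate. OFF types use ionotropic glutamate receptors, and calcium-binding proteins and homeobox transcription factors distinguish many of the bipolar types. The 9 genes described here were taken as a named list of bipolar cell genes from a table of 17164 counted genes: the transcription factor genes Otx2 and Vsx1, the ON pathway genes Trpm1, Gng13, Pcp2 and Prkca, the calcium-binding protein genes Scgn and Cabp5, and Gsg1. All 9 passed the filter on low counts, which kept 16797 genes. The cells were sorted as ganglion cells, for which none of these genes is a defining marker.

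RNA was sequenced from ganglion cells sorted from dissociated retinas of C57BL/6 mice aged 6 to 7 weeks, 3 days after crush of the optic nerve. The groups were 5 libraries of ATF3 knockouts, 2 of ATF4 knockouts, 4 of CEBPG knockouts and 5 of CHOP knockouts, each given guide RNAs against that transcription factor, and 4 libraries of controls given a control guide. ATF3, ATF4, C/EBP gamma and CHOP (encoded by Ddit3) belong to the bZIP family and act in the response of cells to stress, and the crush was done in all groups, the controls included. In the submitters' sample sheet the ATF3, CEBPG and CHOP knockouts were all from female mice and batch 3, and the controls from male mice and batch 2. The ATF4 knockouts were from batch 1, with replicate 1 listed as female and replicate 3 as male. The ATF3, CEBPG and CHOP groups were therefore compared with each other first. Against the controls a knockout cannot be told apart from its batch, nor, for ATF3, CEBPG and CHOP, from sex. The sources used here do not say how guides and nuclease reached the cells, which cells carry them or whether a library is 1 animal or a pool, and p-values measure a spread between libraries that may be technical. A further library, titled as control and listed as nonTarget in the sample sheet but given a CHOP genotype, was put in no group.

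The ATF3 libraries held 25267560 to 32776378 counted reads, the ATF4 libraries 11929692 to 12404601, the CEBPG libraries 9000250 to 29810987, the CHOP libraries 14272784 to 31543917 and the controls 6401446 to 11752828. CEBPG replicates 6 and 8 stood apart on the fourth principal component (-99.3 and 102, 7.01% of the variance), so results with that group were also computed without them. Rbpms and Pou4f2, defining markers of the sorted ganglion cells, were low. Rbpms was at 6.51 to 11.6 CPM in the ATF3, 43.2 to 45.5 in the ATF4 and 19.6 to 42.3 in the CEBPG libraries. It was at 10.03 to 16.0 CPM in the CHOP libraries, against 14.03 to 36.3 CPM in controls. Pou4f2 had no read in any CEBPG library. Other ganglion cell genes differed: Nefl averaged 404 CPM in the ATF3 knockouts and 270 CPM in the controls, and Nefm 94.9 and 45.8 CPM. Of 11 such genes, 3 were called higher and 5 lower for ATF3 over control in the test used below, where 33.4% of all genes were called. ATF4 replicate 1 is listed as female, but the Y-linked Ddx3y was at 61.5 CPM and the X-linked Xist at 0.26 CPM in it. No other library was checked in this way. Atf3 transcript was at 30.6 to 48.0 CPM in the ATF3 knockouts and 22.5 to 55.0 CPM in the CHOP knockouts, against 104 to 125 CPM in the controls. Cebpg was at 49.2 to 92.4 CPM in the CEBPG knockouts and 74.6 to 93.6 CPM in the controls, and Ddit3 at 57.4 to 72.6 CPM in the CHOP knockouts and 75.4 to 109 CPM in the controls. Atf4 was at 148 and 159.7 CPM in the ATF4 knockouts, against 216 to 387 CPM in the controls. Its mean was lower in the knockouts of batch 3, at 87.9 CPM in ATF3, 130 CPM in CEBPG and 106 CPM in CHOP knockouts. Within batch 3, Cebpg averaged 74.6 ± 21.2 CPM in the CEBPG knockouts (SD, n = 4), against 62.2 CPM with ATF3 and 55.8 CPM with CHOP knocked out. Ddit3 averaged 65.5 ± 6.13 CPM in the CHOP knockouts (n = 5), against 61.9 CPM in ATF3 and 66.5 CPM in CEBPG knockouts. Atf3 averaged 38.3 CPM in ATF3, 36.9 CPM in CHOP and 74.5 CPM in CEBPG knockouts. Within the batch none of Cebpg, Ddit3 and Atf3 thus had its lowest mean in the group labelled with its knockout. A small edit need not lower a transcript, and these levels give no check of the knockout labels, that of ATF4 included. CPM are counted reads scaled to library size with TMM factors.

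In the mm10 build the genes lie apart from each other, with Otx2 on chromosome 14 (48657677 to 48673819, minus strand), Vsx1 on chromosome 2 (150680702 to 150689360, minus strand), Trpm1 on chromosome 7 (64153835 to 64269775, plus strand), Gng13 on chromosome 17 (25717171 to 25719406, plus strand) and Pcp2 on chromosome 8 (3623371 to 3625545, minus strand). The others are Prkca on chromosome 11 (107933387 to 108343928, minus strand), Scgn on chromosome 13 (23953456 to 23991214, minus strand), Cabp5 on chromosome 7 (13398132 to 13408887, plus strand) and Gsg1 on chromosome 6 (135237326 to 135254351, minus strand). Exons of 3 of them share many bases with a protein-coding gene on the opposite strand: Pcp2 shares 941 of 1828 exon bases with Pet100, Gng13 399 of 773 with Chtf18 and Gsg1 293 of 1586 with Fam234b. Otx2 shares 154 exon bases with the non-coding gene Otx2os1 on the opposite strand and 168 with Gm49154 on its own. The sources used here do not say whether reads were counted by strand, and without it such reads cannot be told apart.

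The sequences before the start sites of 3 members are shown because they hold letters searched for here, and because the members all differed between ATF3 and CHOP knockouts. Homeodomain proteins such as OTX2, itself encoded by a member, bind the letters TAATCC in bipolar cells and photoreceptors. The windows come from RefSeq on GRCm38.p6, read 5′ to 3′ on the strand of the gene and ending before the annotated gene. Capitals mark TAATCC or its reverse complement GGATTA in Cabp5 (chr7:13397905-13398131, plus strand) and Trpm1 (chr7:64153585-64153834, plus strand). In Scgn (chr13:23991215-23991464, minus strand) capitals mark a match to TGANTCA, the letters bound by AP-1 factors, a family to which ATF3 is related.
Cabp5: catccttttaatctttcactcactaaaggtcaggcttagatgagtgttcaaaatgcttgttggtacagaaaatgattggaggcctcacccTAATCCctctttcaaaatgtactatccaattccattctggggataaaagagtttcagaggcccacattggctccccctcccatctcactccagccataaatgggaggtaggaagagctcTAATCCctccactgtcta
Trpm1: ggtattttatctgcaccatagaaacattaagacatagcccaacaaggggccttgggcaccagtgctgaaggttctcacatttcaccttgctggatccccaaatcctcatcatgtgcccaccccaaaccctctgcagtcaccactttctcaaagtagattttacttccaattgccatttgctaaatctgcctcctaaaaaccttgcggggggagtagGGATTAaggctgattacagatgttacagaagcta
Scgn: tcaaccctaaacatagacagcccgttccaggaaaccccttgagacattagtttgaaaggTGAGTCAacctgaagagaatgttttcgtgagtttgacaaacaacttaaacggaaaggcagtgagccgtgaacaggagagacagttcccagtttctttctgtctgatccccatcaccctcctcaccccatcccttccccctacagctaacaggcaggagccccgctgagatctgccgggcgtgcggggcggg
Of the 18 windows of 300 bases that RefSeq start sites give for the 9 members, 3 held TAATCC on either strand, in 3 members (Cabp5, Trpm1 and Otx2), against 7.06% of 32817 such windows of all genes. TGANTCA, whose matches on both strands coincide, was in 1 window, that of Scgn, against 7.81% of all windows. The homeodomain letters TAATTA, also the same on both strands, were in 3 windows, of Pcp2 and Otx2, against 5.30%, and the cyclic AMP response element TGACGTCA was in none, against 1.79%. TAATTA and TAATCC share no full match, and each is a match of letters only.

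Between ATF3 and CHOP knockouts, the genes separated without overlap: 8 of the 9 were higher in every ATF3 library than in any CHOP library, and Prkca was lower in every one. In the edgeR quasi-likelihood test 8 rose and 1 fell at an adjusted p below 0.05, where 2.26% of all genes were called, 1.51% higher and 0.756% lower. Groups that do not overlap were found for 4.47% of all genes with ATF3 higher and 3.60% with ATF3 lower. The median log2 fold change of the members was 1.18, against -0.01 over all genes. The members were chosen with earlier results of these data known, so the contrast with all genes is a description and no independent test. Together the 9 genes took 0.111% to 0.126% of the counted reads in the ATF3 and 0.0437% to 0.0646% in the CHOP libraries. In such bulk libraries fewer cells of a type and less RNA per cell cannot be told apart.

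Of the transcription factor genes, Vsx1, a homeobox gene of cone bipolar cells, had the largest fold change among the members. It was at 29.3, 27.3, 31.2, 41.2 and 34.4 CPM in the ATF3 knockouts, against 7.77, 8.19, 5.14, 3.04 and 10.98 CPM in the CHOP knockouts (log2 fold change 2.21, SE 0.42, adjusted p = 0.00376). The lowest ATF3 library was at 27.3 CPM and the highest CHOP library at 10.98 CPM, so the gap between the groups was wider than the spread within either. Otx2, which specifies photoreceptor and bipolar cells and is expressed in both in the adult, was at 118, 123, 129, 129.8 and 116 CPM in the ATF3 knockouts and 46.4, 64.7, 64.6, 58.5 and 62.1 CPM in the CHOP knockouts (log2 fold change 1.06, SE 0.16, adjusted p = 0.000528). Its ATF3 libraries differed little from each other, with a coefficient of variation of 5.15%, and none came near the CHOP range.

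Genes of the ON pathway were split between these knockouts. Trpm1, the channel at the end of the mGluR6 cascade, was at 163, 190.4, 190.1, 238 and 192 CPM in the ATF3 knockouts and 55.7, 81.0, 93.7, 103 and 94.8 CPM in the CHOP knockouts (log2 fold change 1.18, SE 0.23, adjusted p = 0.00479). Gng13, a G protein gamma subunit of ON bipolar cells, was at 62.3, 70.2, 70.7, 74.1 and 64.3 CPM in the ATF3 knockouts and 17.6, 24.6, 25.0, 18.2 and 19.3 CPM in the CHOP knockouts (log2 fold change 1.70, SE 0.21, adjusted p = 4.55e-05). Both genes thus stood higher in each ATF3 library. Pcp2, a modulator of Go that is also known from cerebellar Purkinje cells, averaged 94.1 ± 8.04 CPM in the ATF3 knockouts and 45.8 ± 15.1 CPM in the CHOP knockouts (SD, n = 5 each; log2 fold change 1.04, SE 0.24, adjusted p = 0.0207). That call was lost without CHOP replicate 1 or 5 (adjusted p = 0.0575 and 0.0626). Prkca, the protein kinase C alpha gene whose protein is the standard label of rod bipolar cells, went the other way, at 47.3, 45.6, 51.5, 45.1 and 47.1 CPM in the ATF3 knockouts and 54.8, 69.3, 81.0, 86.8 and 61.9 CPM in the CHOP knockouts (log2 fold change -0.58, SE 0.15, adjusted p = 0.0354). The groups came close, with the highest ATF3 library at 51.5 CPM and the lowest CHOP library at 54.8 CPM, and the call was lost on leaving out any ATF3 library or CHOP replicate 2, 3 or 4, with adjusted p from 0.0626 (without ATF3 replicate 7) to 0.137 (without CHOP replicate 4).

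The calcium-binding protein genes were higher in the ATF3 knockouts as well. Scgn, which encodes the calcium sensor secretagogin of cone bipolar cells, was at 241, 284, 253, 261 and 285 CPM in the ATF3 knockouts, against 85.6, 104, 110.3, 100.4 and 90.3 CPM in the CHOP knockouts (log2 fold change 1.43, SE 0.18, adjusted p = 4.84e-05). Cabp5, expressed in rod bipolar and some cone bipolar cells, was at 179, 201, 207, 210.3 and 206 CPM in the ATF3 knockouts and 59.5, 114, 95.6, 73.1 and 61.7 CPM in the CHOP knockouts (log2 fold change 1.31, SE 0.18, adjusted p = 0.000182). The lowest ATF3 library exceeded the highest CHOP library in both genes, by the wider margin in Scgn. Gsg1, annotated as germ cell-specific gene 1, ran from 174 to 205 CPM in the ATF3 knockouts and from 82.4 to 103 CPM in the CHOP knockouts (log2 fold change 1.03, SE 0.17, adjusted p = 0.000859).

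**Figure D1:**
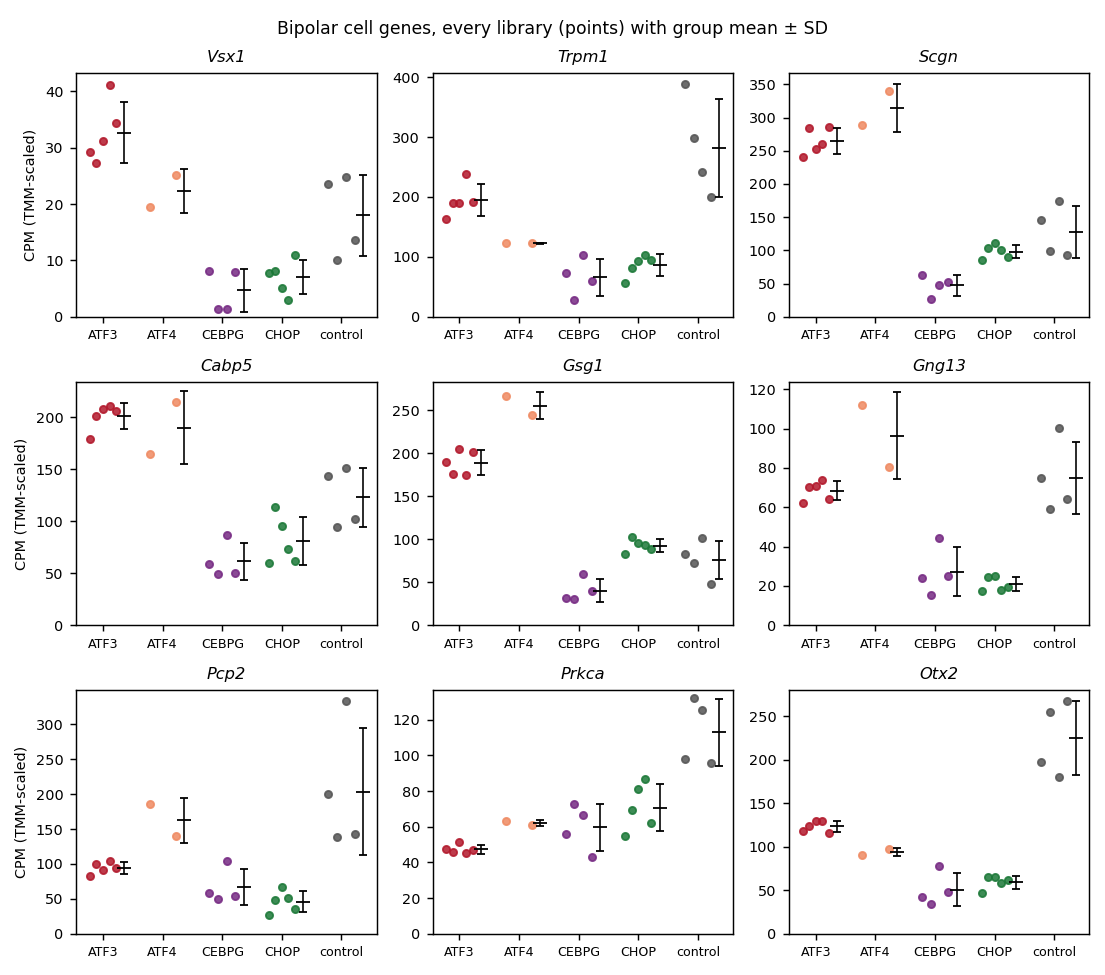
Scaled counted reads (CPM, y axis from 0) of the 9 bipolar cell genes in every library (points) of the 4 knockout groups and the controls, with group mean ± SD beside the points. Apart from Prkca, the 5 ATF3 libraries lie above all 5 CHOP libraries in every panel, and Vsx1 falls to 1.32 CPM in the lowest CEBPG library.

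Between ATF3 and CEBPG knockouts, 7 of the 9 genes rose and none fell, where 20.4% of all genes were called, 10.1% higher and 10.2% lower. The members' median log2 fold change was 1.56, against -0.0042 over all genes. All 5 ATF3 libraries lay above all 4 CEBPG libraries in 7 genes, as in 11.2% of all genes. Vsx1 ran from 27.3 to 41.2 CPM in the ATF3 knockouts and was at 8.07, 1.32, 1.41 and 7.89 CPM in CEBPG replicates 10, 6, 8 and 9 (log2 fold change 2.77, SE 0.47, adjusted p = 0.000169). Replicates 6 and 8, with 13 and 25 reads of Vsx1, stood well below the other two, and without both the value was 2.02, adjusted p = 0.00174. Scgn ran from 241 to 285 CPM in the ATF3 knockouts and was at 63.0, 26.0, 48.5 and 52.4 CPM in the same order of CEBPG libraries (log2 fold change 2.47, SE 0.20, adjusted p = 2.1e-08). Gsg1 ran from 174 to 205 CPM in the ATF3 knockouts and was at 31.7, 30.8, 59.6 and 39.4 CPM in the CEBPG knockouts (log2 fold change 2.23, SE 0.19, adjusted p = 3.15e-08).

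Of the ON pathway genes, Trpm1 and Gng13 rose in this comparison. Trpm1 averaged 195 ± 27.1 CPM in the ATF3 (SD, n = 5) and 65.9 ± 31.0 CPM in the CEBPG knockouts (n = 4; log2 fold change 1.56, SE 0.25, adjusted p = 0.000103), and Gng13 68.3 ± 4.85 CPM in the ATF3 and 27.3 ± 12.3 CPM in the CEBPG knockouts (log2 fold change 1.32, SE 0.22, adjusted p = 0.000161). Cabp5 (1.71, SE 0.20, adjusted p = 1.91e-06) and Otx2 (1.28, SE 0.18, adjusted p = 1.58e-05) also rose. Pcp2 did not pass the test, at 82.6, 99.5, 91.3, 104 and 93.6 CPM in the ATF3 and 58.0, 49.9, 105 and 53.6 CPM in the CEBPG knockouts (log2 fold change 0.50, SE 0.26, adjusted p = 0.184). Its CEBPG replicate 8 lay above every ATF3 library, and without that replicate the gene was called (0.81, adjusted p = 0.0285). Prkca did not pass either (-0.33, SE 0.16, adjusted p = 0.144), and was called lower without CEBPG replicate 9 (-0.46, adjusted p = 0.0369). Without CEBPG replicates 6 and 8 the same 7 members were called, with log2 fold changes of 2.19 for Scgn, 2.40 for Gsg1, 1.88 for Cabp5, 1.54 for Trpm1, 1.47 for Gng13 and 1.43 for Otx2 beside that of Vsx1, and Prkca was at -0.07.

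CEBPG and CHOP knockouts differed in 2 of these genes, Scgn and Gsg1. Of the 9 members 2 fell and none rose, where 26.7% of all genes were called, 13.5% higher and 13.2% lower, so the share of members called was near that of all genes. Scgn was at 63.0, 26.0, 48.5 and 52.4 CPM in the CEBPG knockouts and 85.6, 104, 110.3, 100.4 and 90.3 CPM in the CHOP knockouts (log2 fold change -1.04, SE 0.19, adjusted p = 0.000306), and Gsg1 at 30.8 to 59.6 CPM in the CEBPG and 82.4 to 103 CPM in the CHOP knockouts (log2 fold change -1.20, SE 0.18, adjusted p = 3.55e-05). In both genes no CEBPG library reached the lowest CHOP library, a separation that 9.92% of all genes showed. Gng13 (0.38, SE 0.22, adjusted p = 0.209) and Pcp2 (0.54, SE 0.26, adjusted p = 0.127) had positive values that did not pass. Without CEBPG replicate 8, 5 members were called lower, Trpm1 (-0.66, adjusted p = 0.0495), Cabp5 (-0.62, adjusted p = 0.0227) and Otx2 (-0.51, adjusted p = 0.0152) in addition. Gng13 was called higher without CEBPG replicate 6 (0.57, adjusted p = 0.0436) and Pcp2 without CHOP replicate 3 (0.72, adjusted p = 0.0443). Vsx1 was at -0.55 (adjusted p = 0.394) and turned positive without CEBPG replicates 6 and 8 (0.21, adjusted p = 0.739). Scgn (-0.73) and Gsg1 (-1.35) were still the members called without these libraries.

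**Figure D2:**
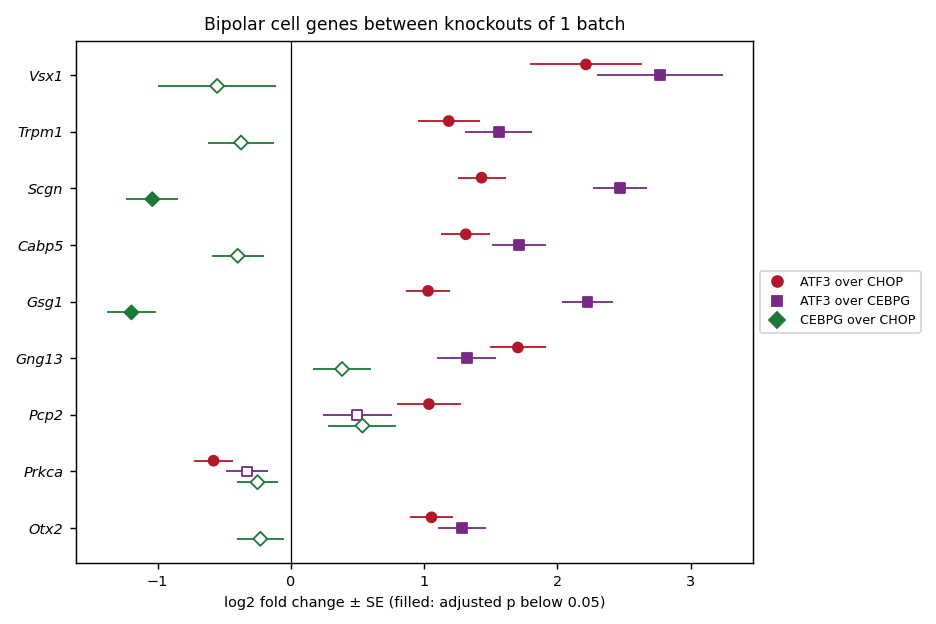
Log2 fold change ± SE (x axis) of the 9 genes (rows) for ATF3 over CHOP, ATF3 over CEBPG and CEBPG over CHOP, all of batch 3; filled symbols passed at an adjusted p below 0.05. Vsx1 reaches 2.77 for ATF3 over CEBPG, and Prkca is the member with negative values in all 3 comparisons.

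The members did not keep constant proportions. Of the reads of all 9 genes, Prkca took 3.91% ± 0.308 in the ATF3 (SD, n = 5), 14.9% ± 5.93 in the CEBPG (n = 4) and 12.6% ± 1.34 in the CHOP knockouts (n = 5). Scgn took 21.8% ± 1.34, 11.4% ± 3.61 and 17.6% ± 1.12 in the same groups. Levels of different genes were set side by side per kilobase of exon, which gives an approximate order only. The length counts all annotated exons of a gene, whether or not they are used in these cells. Pcp2, Gng13 and Gsg1 also share exon bases with genes on the opposite strand, whose reads may be among theirs. Scgn was the highest member in the ATF3 knockouts at 163 CPM per kilobase, followed by Gsg1 at 119 and Gng13 at 88.4. In the CEBPG knockouts Pcp2 led at 36.4 CPM per kilobase, followed by Gng13 at 35.3 and Scgn at 29.3. In the CHOP knockouts Scgn at 60.6 and Gsg1 at 58.4 CPM per kilobase again led. Trpm1, Vsx1 and Prkca were the lowest members on this scale in each of these groups, at 13.2, 8.62 and 5.27 CPM per kilobase in the ATF3 knockouts.

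The spread between libraries also differed by group. In the ATF3 knockouts the coefficient of variation of the members' CPM ran from 5.15% (Otx2) to 16.6% (Vsx1), in the CHOP knockouts from 8.41% (Gsg1) to 43.3% (Vsx1), and in the CEBPG knockouts from 21.96% (Prkca) to 81.8% (Vsx1). In the controls it ran from 16.5% (Prkca) to 44.8% (Pcp2). CEBPG replicate 8 had the highest level of its group in Trpm1, Cabp5, Gsg1, Gng13, Pcp2 and Otx2, while Vsx1 was lowest in replicates 6 and 8.

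Other genes known from bipolar cells were counted from 3 further lists of 39 genes, all measured. These lists too were chosen with earlier results of these data known. Beside them, 1.51% of all genes were called higher for ATF3 over CHOP, 10.1% higher for ATF3 over CEBPG and 13.2% lower for CEBPG over CHOP. Partners of the ON cascade moved with Trpm1 in part. For ATF3 over CHOP 2 of 11 were called higher and 0 lower, with a median log2 fold change of 0.36, and for ATF3 over CEBPG 8 of 11 were called higher and 0 lower, with a median log2 fold change of 0.75. For CEBPG over CHOP 0 of 11 were called higher and 4 lower, with a median log2 fold change of -0.48. Grm6, the mGluR6 receptor gene itself, averaged 109.6 ± 16.1 CPM in the ATF3, 38.4 ± 21.3 CPM in the CEBPG and 38.6 ± 8.79 CPM in the CHOP knockouts (SD, n = 5, 4 and 5), with a log2 fold change 1.505, SE 0.23, adjusted p = 0.000515 for ATF3 over CHOP and a log2 fold change 1.51, SE 0.25, adjusted p = 0.000136 for ATF3 over CEBPG. Gnb3, a G protein beta subunit of ON bipolar cells and cones, rose for ATF3 over CHOP (log2 fold change 0.79, SE 0.17, adjusted p = 0.012). Lrit1, which is also a photoreceptor gene, rose for ATF3 over CEBPG (log2 fold change 1.34, SE 0.24, adjusted p = 0.000313). Gnb5 (log2 fold change 0.72, SE 0.11, adjusted p = 5.92e-05) rose there too, and it fell for CEBPG over CHOP with Gnao1 and Rgs7bp (-0.61, -0.75 and -0.48). These 3 genes of Go signalling are widely expressed in neurons.

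Of the transcription factor genes known from bipolar cells, for ATF3 over CHOP 5 of 11 were called higher and 0 lower, with a median log2 fold change of 0.71, and for ATF3 over CEBPG 8 of 11 were called higher and 0 lower, with a median log2 fold change of 0.98. For CEBPG over CHOP 0 of 11 were called higher and 5 lower, with a median log2 fold change of -0.41. The bHLH genes Neurod4 (log2 fold change 0.91, SE 0.16, adjusted p = 0.00143) and Bhlhe23, known from rod bipolar cells (log2 fold change 1.36, SE 0.25, adjusted p = 0.00256), rose for ATF3 over CHOP. Neurod4 averaged 610.4 ± 50.6 CPM in the ATF3, 195 ± 25.2 CPM in the CEBPG and 325 ± 48.5 CPM in the CHOP knockouts (SD, n = 5, 4 and 5). Fezf2, a zinc finger gene, rose for ATF3 over CEBPG (log2 fold change 1.81, SE 0.25, adjusted p = 1.5e-05) and fell with Neurod4 and Prdm8 for CEBPG over CHOP (-1.18, -0.74 and -0.41).

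Receptor and subtype genes of bipolar cells followed. For ATF3 over CHOP 5 of 17 were called higher and 0 lower, with a median log2 fold change of 0.89, and for ATF3 over CEBPG 7 of 17 were called higher and 0 lower, with a median log2 fold change of 1.20. For CEBPG over CHOP 0 of 17 were called higher and 3 lower, with a median log2 fold change of -0.42, a count near the 13.2% of all genes called lower. Grik1, the kainate receptor subunit gene of OFF bipolar cells, averaged 418 ± 31.9 CPM in the ATF3, 94.0 ± 23.7 CPM in the CEBPG and 192 ± 20.1 CPM in the CHOP knockouts, and all 3 comparisons passed (ATF3 over CHOP 1.12, ATF3 over CEBPG 2.15 and CEBPG over CHOP -1.04). Tacr3, the neurokinin 3 receptor gene, did the same (1.28, 2.36 and -1.07 in that order). Kcng4, a potassium channel subunit gene, rose for ATF3 over CHOP (log2 fold change 1.67, SE 0.28, adjusted p = 0.00113). Slc17a7, the vesicular glutamate transporter of bipolar cells and photoreceptors, rose for ATF3 over CEBPG (log2 fold change 1.20, SE 0.14, adjusted p = 1.71e-06) and fell for CEBPG over CHOP (-0.81). Igfn1, Syt2, Neto1 and Erbb4, singled out after their values were seen, had no read in at least 1 library, and edgeR called none of them in the 3 comparisons, with adjusted p from 0.108 upward.

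**Figure D3:**
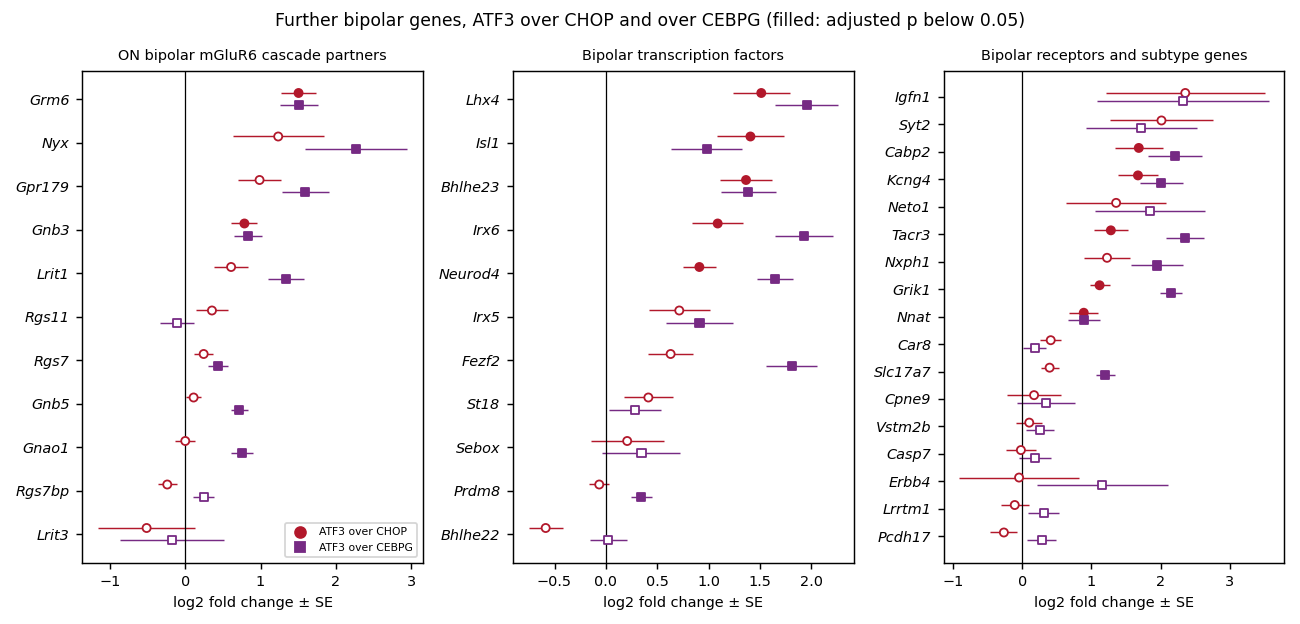
Log2 fold change ± SE (x axes) for ATF3 over CHOP and ATF3 over CEBPG of 11 partners of the ON cascade, 11 transcription factor genes and 17 receptor and subtype genes (rows); filled symbols passed at an adjusted p below 0.05. Grm6 at 1.505, Neurod4 at 0.91 and Grik1 at 1.12 for ATF3 over CHOP lie to the right of 0.

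Genes among the 5 whose profile over the 20 libraries was most like the mean of the members, by the root mean square difference of centred log2 CPM, were Pygm (0.20), Chtf18 (0.21), Asic3 (0.25) and Lrtm1 (0.29). Chtf18 is the gene that shares exon bases with Gng13 on the opposite strand. Among the members this difference ran from 0.30 for Cabp5 and 0.35 for Gng13 to 0.83 for Prkca and 0.86 for Vsx1. Pygm, the muscle glycogen phosphorylase gene, averaged 141 CPM in ATF3, 132 in ATF4, 52.0 in CEBPG and 61.8 in CHOP knockouts, and 134 CPM in the controls. The libraries share batches and depth within groups, so likeness over them carries no test.

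Markers of other retinal cells moved beside the members, and their part in the result was not tested. Of all genes 2.26% were called for ATF3 over CHOP, 20.4% for ATF3 over CEBPG and 26.7% for CEBPG over CHOP. For ATF3 over CHOP a list with 0 genes called is thus near the share of all genes, and does not show that its genes were unchanged. The 11 Müller glia genes took 1.16% to 1.33% of the reads in the ATF3, 0.854% to 1.06% in the CEBPG and 0.635% to 0.778% in the CHOP knockouts, with 2 of 11 called higher and none lower for ATF3 over CHOP and 7 higher and 1 lower for ATF3 over CEBPG. The 14 rod genes took 0.426% to 0.451%, 0.347% to 0.569% and 0.537% to 0.909% in that order, so rod reads were lower, not higher, in the ATF3 than in the CHOP knockouts (9 of 14 called lower, none higher). Between ATF3 and CEBPG knockouts 1 of 14 rod genes was called, lower. The 9 cone genes took 0.151% to 0.181% in the ATF3, 0.0988% to 0.146% in the CEBPG and 0.155% to 0.185% in the CHOP knockouts, and the 11 amacrine genes 0.487% to 0.516%, 0.263% to 0.351% and 0.594% to 0.690%. For ATF3 over CHOP 1 of 9 cone genes was called higher and 1 lower, and 0 of 11 amacrine genes passed in edgeR, 4 having an unadjusted p below 0.05 and 1 passing in DESeq2. The 11 microglia genes took 0.487% to 0.551%, 0.578% to 0.676% and 0.326% to 0.471%. For ATF3 over CEBPG, where 20.4% of all genes were called, 4 of 9 cone and 6 of 11 amacrine genes were called higher and none lower, 1 of 11 microglia genes was called higher and 3 lower, and 2 of 11 ganglion cell genes were called higher and 4 lower. The 6 vascular genes, each without a read in at least 1 library, took 0.00477% to 0.00797% in the ATF3, 0.00220% to 0.00443% in the CEBPG and 0.00209% to 0.00315% in the CHOP knockouts, so that every ATF3 library lay above the others as with most members. Of these 6 genes 2 were called higher for ATF3 over CEBPG, and for ATF3 over CHOP 0 passed in edgeR, 3 having an unadjusted p below 0.05 and 1 passing in DESeq2. The 7 T and NK lymphocyte genes took 0.0205% to 0.0258%, 0.123% to 0.185% and 0.0234% to 0.0353%, and all 7 were called lower for ATF3 over CEBPG and higher for CEBPG over CHOP. Genes of ganglion cells themselves took 0.0566% to 0.0588% in the ATF3, 0.0381% to 0.0519% in the CEBPG and 0.0451% to 0.0575% in the CHOP knockouts, with 0 of 11 passing between ATF3 and CHOP in edgeR or DESeq2 and 6 having an unadjusted p below 0.05. On average Nefl took 404 and Nefm 94.9 of the 574 summed CPM of this list in the ATF3 knockouts. Its share thus mainly followed these genes and says little of the other ganglion cell genes. For ATF3 over CHOP the median log2 fold change of the list was -0.33, with 4 of 11 values positive. Rbpms2, Pou4f2 and Pou4f3 had no read in at least 1 library. All 11 together took less of the reads than the 9 bipolar genes did in every ATF3, ATF4 and control library. In the CEBPG and CHOP knockouts this held in only part of the libraries.

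**Figure D4:**
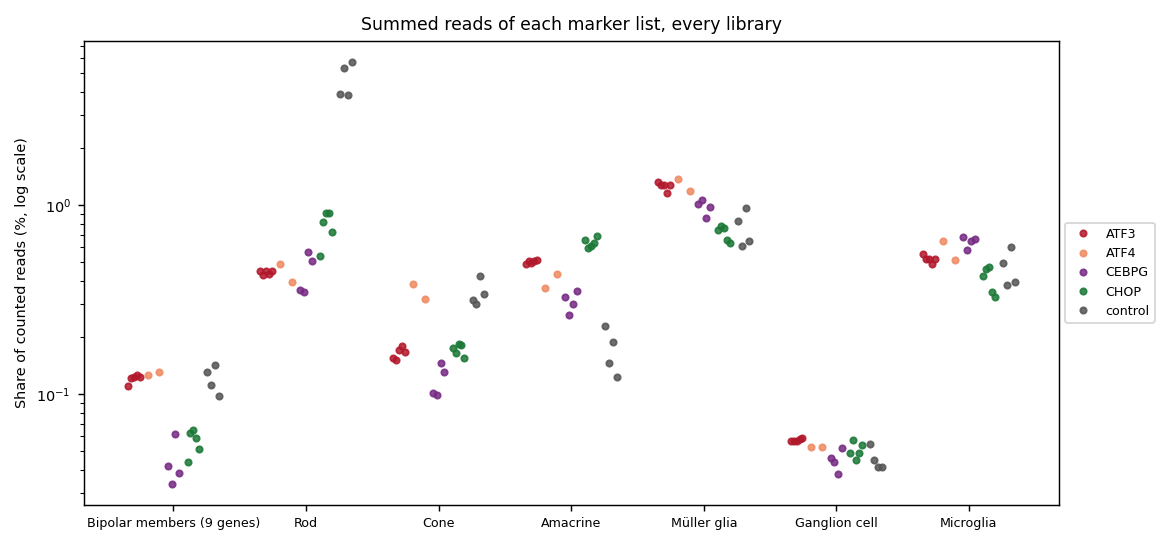
Share of counted reads (%, log scale on the y axis) of the 9 bipolar members and of 6 marker lists in every library (points) of the 4 knockout groups and the controls. The bipolar share is 0.111% to 0.126% in the ATF3 libraries and 0.0337% to 0.0620% in the CEBPG libraries, while the rod share separates the controls (3.81% to 5.74%) from all knockouts.

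Against the controls, from which every knockout differs by batch, the members were split with ATF3 or ATF4 knocked out and mostly fell with CEBPG or CHOP knocked out. The 4 comparisons share the same 4 control libraries. In the ATF3 knockouts 3 members rose and 3 fell, where 33.4% of all genes were called (18.6% higher and 14.8% lower). In the ATF4 knockouts 2 rose and 3 fell (background 31.3%, 16.6% higher and 14.6% lower), in the CEBPG knockouts all 9 fell (background 33.4%, 15% lower) and in the CHOP knockouts 7 fell and none rose (background 33.5%, 15.4% lower). The members' median log2 fold changes came to -0.13, 0.31, -1.45 and -1.36 for ATF3, ATF4, CEBPG and CHOP, against 0.06, 0.00, 0.06 and 0.01 over all genes. The summed share of the 9 genes was 0.111% to 0.126% in the ATF3 and 0.127% to 0.132% in the ATF4 knockouts, inside the 0.0985% to 0.143% of the controls. It was 0.0337% to 0.0620% in the CEBPG and 0.0437% to 0.0646% in the CHOP knockouts, below every control. Amacrine genes, whose part was not tested, took 0.487% to 0.516%, 0.365% to 0.436%, 0.263% to 0.351% and 0.594% to 0.690% with ATF3, ATF4, CEBPG and CHOP knocked out, against 0.124% to 0.229% in the controls, and Müller glia genes 1.16% to 1.33%, 1.18% to 1.38%, 0.854% to 1.06% and 0.635% to 0.778%, against 0.609% to 0.967%.

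Otx2 fell in all 4 knockouts. ATF3 knockouts averaged 123 ± 6.35 CPM (SD, n = 5), ATF4 knockouts 94.2 ± 4.60 (n = 2), CEBPG knockouts 50.5 ± 19.1 (n = 4) and CHOP knockouts 59.3 ± 7.61 (n = 5), against 197, 255, 180.1 and 267 CPM in the 4 controls. The log2 fold changes were -0.87 (SE 0.17, adjusted p = 0.000363), -1.26 (0.24, 0.000262), -2.15 (0.19, 4.07e-09) and -1.92 (0.17, 8.8e-09) in that order. No knockout library reached the lowest control, a separation found with the knockout lower for 15.4% of all genes in ATF3, 21.1% in ATF4, 12.8% in CEBPG and 13.5% in CHOP. Prkca fell in all 4 as well (-1.25, -0.86, -0.92 and -0.67), with controls at 98.1, 132, 126 and 95.7 CPM and no knockout library among them. Rod genes, with which Otx2 is expressed in photoreceptors, took 0.426% to 0.451% in ATF3, 0.395% to 0.490% in ATF4, 0.347% to 0.569% in CEBPG and 0.537% to 0.909% in CHOP knockouts, against 3.81% to 5.74% of the reads in the controls, with all 14 called lower in each, and their part in the Otx2 values was not tested.

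Gsg1 and Scgn moved in opposite directions in different knockouts. Gsg1 was at 266 and 245 CPM in the 2 ATF4 libraries and 174 to 205 CPM in the ATF3 libraries, against 83.4, 72.6, 101 and 47.7 CPM in the controls (ATF4 1.75, SE 0.22, adjusted p = 2.43e-06; ATF3 1.31, SE 0.18, adjusted p = 5.68e-06). CEBPG knockouts had less of it (-0.91, SE 0.19, adjusted p = 0.000596), where 1 library lay inside the control range, and with CHOP knocked out Gsg1 did not pass (0.28, SE 0.18, adjusted p = 0.244). Scgn was at 288 and 339.9 CPM in the ATF4 libraries and averaged 265 ± 19.3 CPM in the ATF3 libraries, against 145, 98.5, 175 and 92.3 CPM in the controls (ATF4 1.30, SE 0.23, adjusted p = 0.000171; ATF3 1.05, SE 0.19, adjusted p = 0.000157). CEBPG knockouts had less Scgn (-1.42, SE 0.20, adjusted p = 6.78e-06, and a log2 fold change of -1.12 without replicates 6 and 8), and in the CHOP knockouts it did not pass (-0.38, SE 0.19, adjusted p = 0.124) except without control replicate 8 (-0.54, adjusted p = 0.0385). Cabp5 rose in the ATF3 knockouts (0.71, SE 0.19, adjusted p = 0.00663) and fell in the CEBPG (-1.004, SE 0.21, adjusted p = 0.000487) and CHOP knockouts (-0.61, SE 0.19, adjusted p = 0.0172), the last of these lost without control replicate 4 or 7 (adjusted p = 0.0591 and 0.0617). With ATF4 knocked out Cabp5 did not pass (0.63, SE 0.24, adjusted p = 0.0538), except without control replicate 4 or 7 (adjusted p = 0.0433 and 0.0296).

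Of the ON pathway genes, Trpm1 averaged 195 ± 27.1 CPM with ATF3, 123 ± 0.548 with ATF4, 65.9 ± 31.0 with CEBPG and 85.6 ± 18.4 with CHOP knocked out, against 389, 299, 241 and 199 CPM in the controls. It fell in the ATF4 (-1.20, SE 0.33, adjusted p = 0.0076), CEBPG (-2.09, SE 0.27, adjusted p = 1.32e-06) and CHOP knockouts (-1.72, SE 0.24, adjusted p = 6.31e-06). The ATF4 call was lost with 1 library on that side (adjusted p = 0.0673 without replicate 1 and 0.0604 without replicate 3). With ATF3 knocked out Trpm1 did not pass (-0.53, SE 0.24, adjusted p = 0.0954), but was called without control replicate 8 (-0.69, adjusted p = 0.0455), in a fit of the 2 groups alone (-0.57, adjusted p = 0.0127) and in DESeq2 (-0.57, adjusted p = 0.0476). Pcp2 fell in the ATF3 (-1.11, SE 0.25, adjusted p = 0.00139), CEBPG (-1.61, SE 0.28, adjusted p = 6.36e-05) and CHOP knockouts (-2.15, SE 0.26, adjusted p = 5.97e-07), with controls at 199.98, 138, 334 and 143 CPM, the highest of them replicate 7. Gng13 fell in the CEBPG (-1.45, SE 0.23, adjusted p = 3.27e-05) and CHOP knockouts (-1.83, SE 0.22, adjusted p = 5.47e-07), while with ATF3 knocked out it was at 62.3 to 74.1 CPM, inside the control range of 59.3 to 100.4 CPM. Vsx1 fell in the CEBPG (-1.91, SE 0.47, adjusted p = 0.00287, and -1.15, adjusted p = 0.035 without replicates 6 and 8) and CHOP knockouts (-1.36, SE 0.43, adjusted p = 0.0177), and the CHOP call was lost without control replicate 4 or 7 (adjusted p = 0.0542 and 0.0568). In the ATF3 knockouts every library lay above the highest control at 24.7 CPM, as for 18.9% of all genes, but Vsx1 did not pass (0.85, SE 0.44, adjusted p = 0.143) except in a fit of the 2 groups alone (0.82, adjusted p = 0.0139). With ATF4 knocked out Gng13 (0.37, adjusted p = 0.347), Pcp2 (-0.33, adjusted p = 0.505) and Vsx1 (0.31, adjusted p = 0.727) did not pass.

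**Figure D5:**
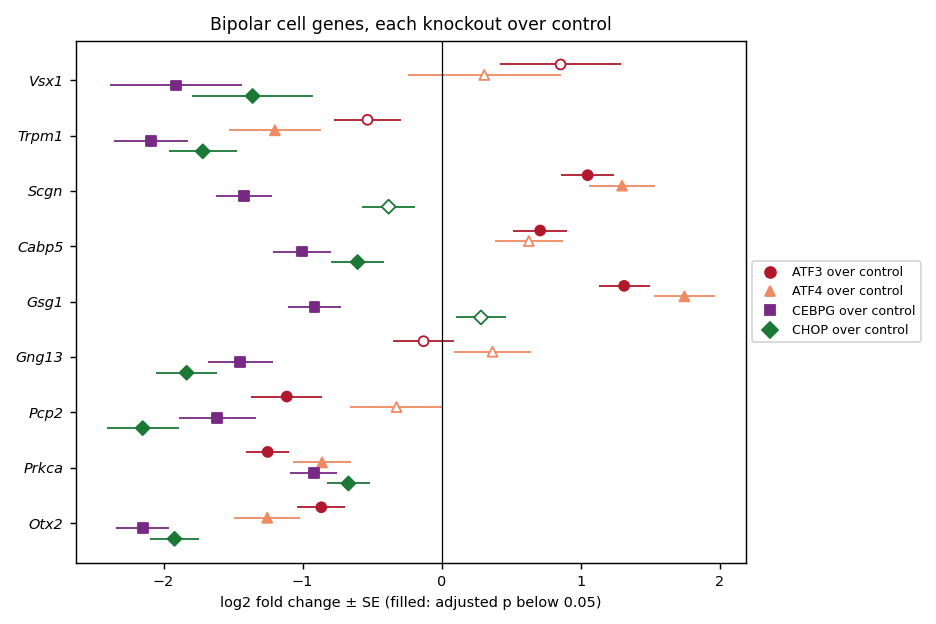
Log2 fold change ± SE (x axis) of the 9 genes (rows) in each of the 4 knockouts over the 4 shared controls; filled symbols passed at an adjusted p below 0.05. All CEBPG values are negative, Otx2 and Prkca are negative in each knockout, and Gsg1 runs from -0.91 (CEBPG) to 1.75 (ATF4).

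The further bipolar lists were split over the same controls, where 33.4%, 31.3%, 33.4% and 33.5% of all genes were called for ATF3, ATF4, CEBPG and CHOP. Of 11 partners of the ON cascade the calls were 3 higher and 4 lower with ATF3 knocked out, 2 higher and 2 lower with ATF4, 1 higher and 6 lower with CEBPG and 2 higher and 6 lower with CHOP. Of 11 transcription factor genes the counts were 5 higher and 1 lower with ATF3 knocked out, 4 higher and 1 lower with ATF4, 1 higher and 6 lower with CEBPG and 2 higher and 4 lower with CHOP. Of 17 receptor and subtype genes they were 8 higher and 3 lower with ATF3 knocked out, 4 higher and 2 lower with ATF4, 2 higher and 7 lower with CEBPG and 2 higher and 5 lower with CHOP. With ATF4 knocked out the shares of the ON cascade list and of the receptor and subtype list called were near that of all genes. The median log2 fold change of the receptor and subtype list was 0.85 for ATF3 and -1.003 for CEBPG, and that of the ON cascade list -0.36 and -1.54.

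The authors' deposited table, for which the sources used here give neither the model nor the log base, lists the same genes for each knockout. At an FDR below 0.05 the authors' deposited table has 2 of the 9 members lower in ATF3, 3 in ATF4, 8 in CEBPG and 4 in CHOP knockouts and none higher, where 7.99%, 5.77%, 22.1% and 7.30% of its genes pass. Signs differed from the values here in 4, 2, 1 and 2 members in that order. In the authors' deposited table Otx2 was at -1.32 (FDR 0.0132), -1.79 (FDR 0.0165), -2.31 (FDR 7.2e-07) and -2.52 (FDR 0.000487) for ATF3, ATF4, CEBPG and CHOP. Vsx1 in the authors' deposited table was at -0.87 (FDR 0.537) for ATF3 and -2.70 (FDR 0.000298) for CEBPG, the first of these opposite in sign to the value here. Gsg1 in the authors' deposited table was at -0.26 (FDR 0.845) for ATF3, also opposite in sign, and at 1.26 (FDR 0.258) for ATF4. Pcp2 in the authors' deposited table was at -1.65 (FDR 0.0426) for ATF4, where it did not pass here. Prkca in the authors' deposited table was at 0.56 (FDR 0.43), 1.32 (FDR 0.0734), 0.06 (FDR 0.903) and 0.96 (FDR 0.203) for ATF3, ATF4, CEBPG and CHOP, positive in all 4 where the values here are negative and called lower.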

How the data were processed

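Retinas were dissociated with papain and cells sorted by flow cytometry as ganglion cells, from which SMART-Seq v4 libraries were made, per the labels' protocols. The submitters' processing notes name STAR, Picard, HTSeq, edgeR and mm10, with no versions, and the sources used here state no annotation, gate or strand setting.

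The authors deposited raw read counts per gene (21 libraries, 17164 genes). A second deposited table holds the authors' log fold changes, of no stated base and assumed to be log2, and their p-values with FDR. The sample sheet of the authors gives aligned reads as counts, the batch and the duplicated fraction of read pairs, 48.0% to 57.6% as percent in the 20 grouped libraries. Of that sheet, 36 other columns were not used, as part of their headers appear shifted.

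Groups follow the sample titles. The members and lists were chosen with earlier results of these data known. Within groups no library was a copy of another, as the chi-square per gene between library pairs was 12.9 to 64.6, above counting noise. Pairs across groups, or with the library in no group, were not checked. The counts went into edgeR 4.0.16 under R 4.3.3. Its filterByExpr step (minimum count 10) kept 16797 genes, TMM scaled the libraries, and 1 robust glmQLFit model without covariates held all 20 libraries, leaving 15 residual degrees of freedom. The 7 comparisons were contrasts tested with glmQLFTest. Genes with a Benjamini-Hochberg adjusted p under 0.05, adjusted over all genes, were called, and every adjusted p in the text is of that kind. Log2 CPM use a prior count of 2. Simulated counts were used to test the edgeR script. Alternatives were DESeq2 1.42.0, RLE scaling, no filter, fewer groups in the fit, libraries left out and a block on the replicate number. Named genes are the 9 members, up to 3 called genes per further list and same-batch comparison by adjusted p, and the 5 genes most like the members, of which 1, also of a further list, is not reported here. Coordinates and exon lengths come from GENCODE M21 and start-site windows from RefSeq, which held all 9 members, both on GRCm38, the assembly of mm10.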

Additional observations from a re-analysis of the deposited data

Results flagged for a closer look

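The library in no group, which has a control title, a CHOP knockout genotype and batch 4 in the sample sheet, held 6 of the 9 members above the highest control on a scaling over all 21 libraries. Vsx1 was at 52.6 CPM (controls 10.02 to 24.7), Trpm1 at 446 CPM (controls 199 to 388) and Scgn at 396 CPM (controls 92.1 to 174). Cabp5 was at 425 CPM (controls 94.1 to 151), Gsg1 at 343 CPM (controls 47.6 to 101) and Gng13 at 140.2 CPM (controls 59.2 to 100.2). All 6 also lay above every grouped library on that scaling, where the highest was at 41.1 CPM for Vsx1 and 339 CPM for Scgn. Counted as a CHOP library, it would end the separation of ATF3 from CHOP knockouts in these 6 genes. In it Pcp2 and Otx2 lay inside the control range, and Prkca was at 25.4 CPM (controls 95.5 to 132), below it.

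Within groups of 4 or 5 libraries, 2 of 36 sets of values had 1 library far from the others, and chance gives about 1 in 20. Cabp5 in ATF3 replicate 5 was at 179 CPM, below the other ATF3 libraries, and Pcp2 in CEBPG replicate 8 was at 105 CPM, above the other CEBPG libraries.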

How the results depend on the processing

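Under RLE scaling, DESeq2, no filter on low counts, a fit of only the 2 groups compared and, where it applies, only batch 3 or without CEBPG replicates 6 and 8, the number of members called stayed within 1.5 times that of the reported fit in all 7 comparisons. Leaving out 1 library gave 8 members called each time for ATF3 over CHOP, 7 to 8 for ATF3 over CEBPG, 2 to 5 for CEBPG over CHOP (5 without CEBPG replicate 8), 6 to 7 for ATF3, 4 to 6 for ATF4, 9 each time for CEBPG and 5 to 8 for CHOP over control. With 1 ATF4 library left, it is assumed to vary like the other groups. Of 909 refitted values of single members, 857 kept direction and side of the threshold, 34 lost and 14 gained a call, and 4 changed sign, none of them called: Vsx1 for CEBPG over CHOP without CEBPG replicates 6 and 8 (0.21), Gng13 for ATF3 over control without control replicate 7 (0.041, with -0.25 as the lowest value on leaving out 1 library) or with a replicate block (0.025), and Pcp2 for ATF4 over control without control replicate 7 (0.0086, lowest -0.55). For ATF3 over CHOP 380 of all genes were called, against 679 with DESeq2, 1232 with the 2 groups alone, 245 without ATF3 replicate 9 and 232 without CHOP replicate 4, and for ATF4 over control 5251, against 3358 without ATF4 replicate 1.

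Titles share replicate numbers between some groups, but same-numbered libraries did not deviate together (correlations of deviations from -0.05 to 0.03 over genes), so the numbers do not pair them. ATF3 and CHOP share 1 number and CEBPG and CHOP none, and with a replicate block 1 member was called for ATF3 over CHOP, 0 for CEBPG over CHOP and 2 for ATF4 over control, where the fit without a block called 9, 2 and 5. The block called 7 for ATF3 over CEBPG and 5, 7 and 5 for ATF3, CEBPG and CHOP over control, where the fit without it called 7 and 6, 9 and 7. Over all genes the block gave 11, 1895 and 517 calls for ATF3 over CHOP, ATF3 over CEBPG and CEBPG over CHOP, against 380, 3419 and 4478 without it, and 1322, 3081 and 2719 for ATF4, CEBPG and CHOP over control, against 5251, 5608 and 5625. Depth limits Vsx1 most, which had 13 reads in CEBPG replicate 6.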
